A study of Rattus norvegicus with 12 samples.

Results

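Expression of 10 genes of astrocytes and of their progenitor-like relatives, the radial glia and tanycytes, was followed through 6 states of corticosterone exposure in the rat hypothalamus. They were *Fabp7*, *Nes*, *Vim*, *Gfap*, *Aqp4*, *Aldoc*, *Aldh1l1*, *Sox2*, *Sox9* and *Rax*, 10 of the 17310 gene rows of the deposited tables, picked by name as markers of these cells. Of these, *Fabp7*, *Nes*, *Gfap* and *Aqp4* had stood out in earlier results of these same libraries, in high Cort against sham and, for *Fabp7*, in ADX against sham. Values of the 10 genes in those 2 comparisons are therefore given as a description, with no p-value, and nothing is read from how many of them passed a threshold.

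The tissue was the hypothalamic region that holds the paraventricular nucleus (PVH) of wild-type male Wistar rats aged 12 weeks, with 12 mRNA libraries in 6 groups of 2. The groups were rats on a 12-day course of high corticosterone (high Cort), rats sampled 3 h (3 h acute) or 1 h (1 h acute) after acute corticosterone, adrenalectomised rats supplemented with corticosterone (supplemented ADX), rats 7 days after adrenalectomy (ADX) and sham-adrenalectomised rats (sham). Adrenalectomy removes the adrenal glands, the source of corticosterone, which is the chief glucocorticoid in this species. The labels gave no dose, no duration for the supplement and no vehicle group. They left unstated whether rats of the acute groups had adrenal glands and whether a library was 1 animal or a pool, so p-values measure the spread between libraries, which may be technical.

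Radial glia are the stem-like cells that line the developing brain. Tanycytes keep that form in the adult, in the wall of the ventricle beside the hypothalamus, and astrocytes are the glia that take up glutamate and potassium and wrap blood vessels with their endfeet. Astrocytes carry the glucocorticoid receptor. *Fabp7* encodes the brain fatty acid-binding protein of radial glia and some astrocytes. *Nes* (nestin), *Vim* (vimentin) and *Gfap* (glial fibrillary acidic protein) encode intermediate filaments, of which nestin is also made by endothelial cells. *Aqp4* encodes the water channel of astrocyte endfeet, *Aldoc* the brain form of the glycolytic enzyme aldolase, and *Aldh1l1* a folate enzyme used as a general astrocyte marker. *Sox2* and *Sox9* encode transcription factors of neural progenitors that glia keep, and *Rax* a homeobox factor of tanycytes.

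Libraries held between 17674159 and 36249006 fragments. Levels are given as CPM, the fragments of a gene over the library's depth, scaled between libraries by the trimmed mean of M-values (TMM), with replicate 1 before replicate 2, and a difference is a log2 fold change with its standard error (SE). Of the 10 genes, 9 passed the filter on low counts that left 12856 genes for edgeR's quasi-likelihood test. A gene was called at a Benjamini-Hochberg adjusted p under 0.05 over all genes tested. Of a list of 4 genes induced by corticosterone, 4 rose in high Cort against sham (edgeR), where 0.513% of all tested genes rose. That list was chosen with earlier results of these libraries known, so its count is a description. Against supplemented ADX, 1 of the 4 rose at 1 h and 0 at 3 h, with median log2 fold changes of 0.21 and 0.08. None was called in ADX against sham or in supplemented ADX against ADX. The check thus registered little outside high Cort. The 10 thalamic marker genes tested, of the brain region next to the hypothalamus, had a mean log2 CPM of 6.23 to 6.28 in high Cort, 5.05 to 5.21 in 3 h acute, 4.46 to 5.29 in 1 h acute, 5.61 to 5.66 in supplemented ADX, 5.55 to 5.71 in ADX and 5.78 to 6.43 in sham libraries. This score differed between groups and was entered in the model as an alternative.

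The promoters of the genes for brain fatty acid-binding protein and the 3 filament proteins are shown because these genes include the largest and the smallest difference of the set in high Cort. Each runs from 250 bases before to 50 bases after the RefSeq transcription start, in build GRCr8, 5′ to 3′ on the gene's strand. Capitals mark matches, on either strand, to 4 motifs: the glucocorticoid half-site TGTTCT, a SOX core ACAAT, the NF1 half-site TTGGC and the TATA box TATAAA.
Fabp7, chr20:37669356-37669655, plus strand: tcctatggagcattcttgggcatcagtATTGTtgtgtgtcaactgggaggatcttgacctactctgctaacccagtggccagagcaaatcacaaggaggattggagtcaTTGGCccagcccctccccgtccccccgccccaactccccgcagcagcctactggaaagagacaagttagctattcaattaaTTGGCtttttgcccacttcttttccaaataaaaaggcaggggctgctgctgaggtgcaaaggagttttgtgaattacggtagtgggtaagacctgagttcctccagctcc
Nes, chr2:175736338-175736637, plus strand: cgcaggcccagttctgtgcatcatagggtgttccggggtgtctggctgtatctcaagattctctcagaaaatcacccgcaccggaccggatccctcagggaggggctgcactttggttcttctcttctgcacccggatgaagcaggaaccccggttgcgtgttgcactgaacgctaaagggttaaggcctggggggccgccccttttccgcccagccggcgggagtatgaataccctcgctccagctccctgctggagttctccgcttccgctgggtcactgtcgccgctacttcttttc
Vim, chr17:81577011-81577310, plus strand: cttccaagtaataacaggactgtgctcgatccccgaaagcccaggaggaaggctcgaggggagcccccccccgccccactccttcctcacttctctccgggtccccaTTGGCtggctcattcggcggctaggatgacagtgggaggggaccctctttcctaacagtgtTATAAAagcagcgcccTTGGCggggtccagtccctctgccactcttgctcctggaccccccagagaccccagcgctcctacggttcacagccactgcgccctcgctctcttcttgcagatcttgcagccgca
Gfap, chr10:88361612-88361911, minus strand: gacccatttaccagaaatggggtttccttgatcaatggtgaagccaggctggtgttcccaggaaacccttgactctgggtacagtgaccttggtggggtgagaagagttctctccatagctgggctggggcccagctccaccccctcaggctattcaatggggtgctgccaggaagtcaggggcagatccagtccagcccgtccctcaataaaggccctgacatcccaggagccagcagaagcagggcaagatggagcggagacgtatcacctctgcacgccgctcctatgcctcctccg
The *Fabp7* window held the SOX core at position -223 and the NF1 half-site at -141 and -60, counted from the start. The *Vim* window held the NF1 half-site at -143 and -66 and the TATA box at -82, and the *Nes* and *Gfap* windows held none of the 4. Among all 33365 rat promoter windows of this length, 45.9% held the NF1 half-site, 33.6% the SOX core, 20.6% the glucocorticoid half-site and 14.2% the TATA box. The glucocorticoid half-site occurred neither in these windows nor in the other 6 windows that matched the 10 genes, which says only that those letters are not in this stretch.

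Per transcript length, *Aldoc* and *Aqp4* were the most abundant of the 10 genes. FPKM, which divides fragments by transcript length and by depth, was compared only within each of 2 processing runs, inferred from the authors' condition labels. The first held high Cort, ADX and sham, and the second the acute and supplemented groups. In the first run *Aldoc* stood at 398 to 701 FPKM, *Aqp4* at 241 to 361 and *Gfap* at 117 to 177. *Vim* had 53.5 to 73.1 FPKM, *Fabp7* 34.0 to 76.0, *Sox2* 37.6 to 42.3, *Sox9* 15.9 to 20.4, *Aldh1l1* 13.1 to 17.5 and *Nes* 2.09 to 4.89. *Nes* was thus the lowest of these genes in every library of that run, whereas *Vim*, *Fabp7* and *Sox2* stood above the astrocyte marker *Aldh1l1*. No order of astrocyte over progenitor genes is read from these levels. *Rax* was at the edge of detection, with 0 and 1 fragments in the high Cort libraries, 1 and 3 in 3 h acute, 2 and 0 in 1 h acute, 3 and 1 in supplemented ADX, 2 and 0 in ADX, and 1 and 1 in sham. No library had more than 3 *Rax* fragments, so no fold change is given. Of 14 other tanycyte genes listed, 12 were in the files and all 12 passed the filter. Among them were *Gpr50*, an orphan receptor, at 8.12 to 29.7 CPM, *Col23a1*, a collagen, at 9.47 to 21.0 CPM and *Lhx2*, a homeobox factor, at 6.12 to 8.53 CPM. Others were lower, such as *Dio2* at 2.51 to 3.93 CPM and *Six6* at 1.1 to 2.32 CPM. *Rax*, the tanycyte factor of the set, thus does not bear out the tanycyte label in these libraries, and the levels of the other listed genes do not settle it.

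**Figure D1:**
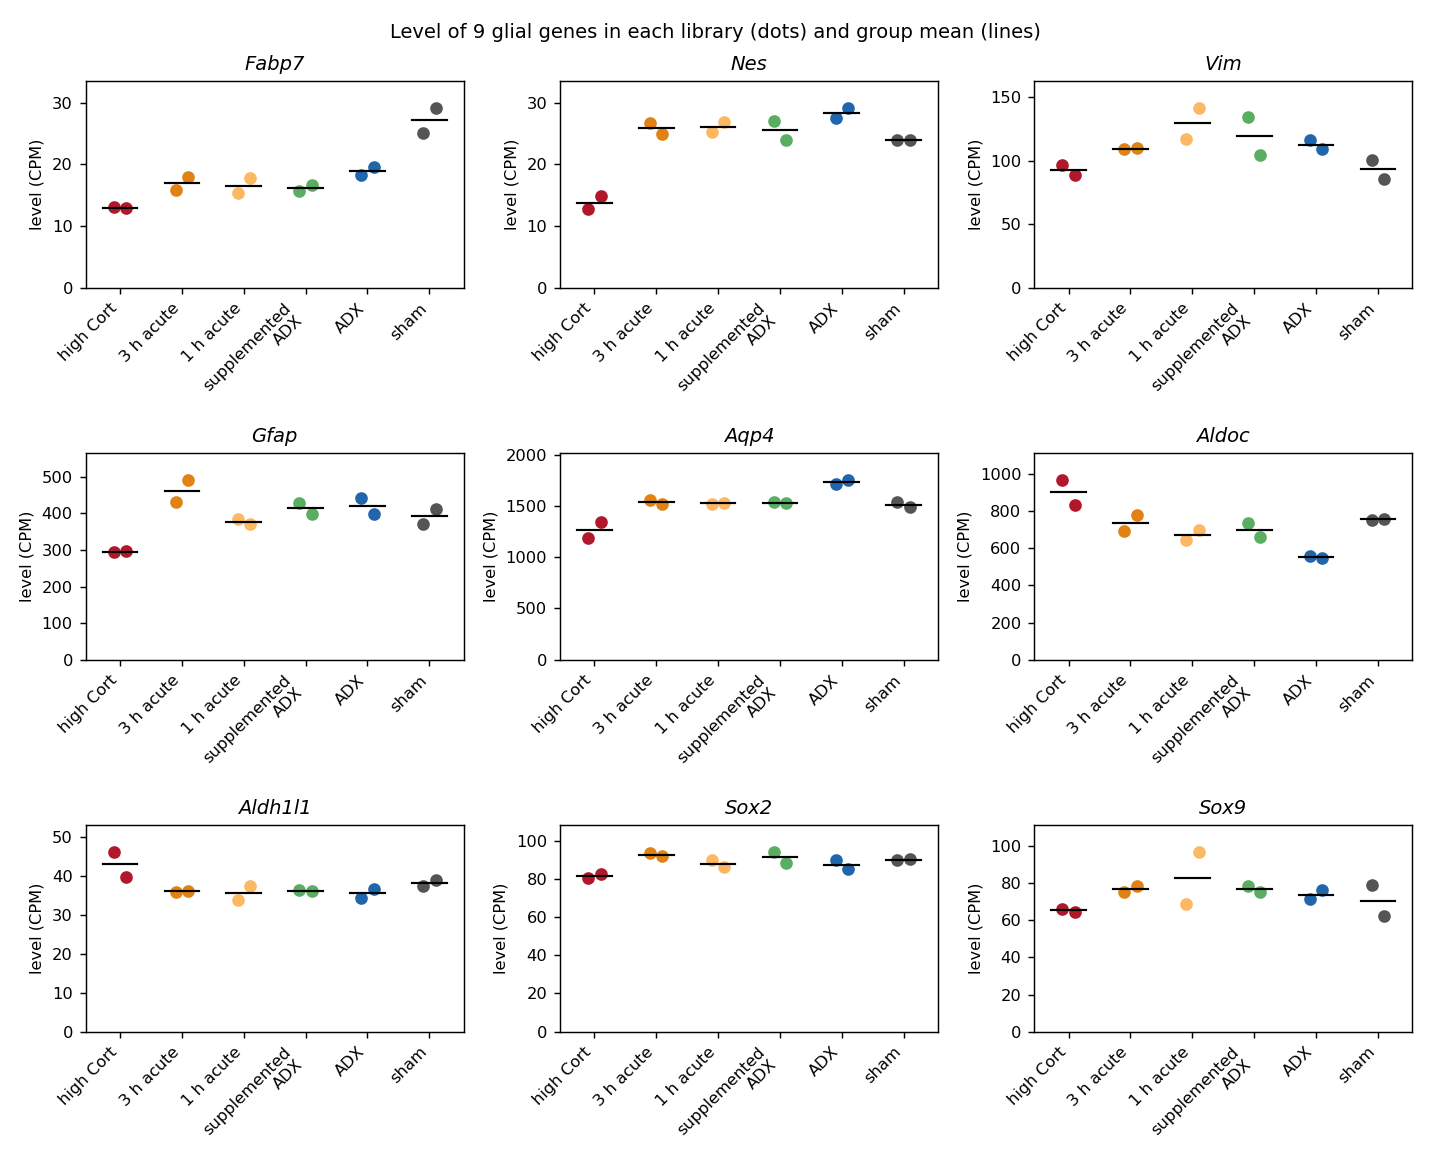
TMM-scaled CPM of the 9 genes that passed the filter, one panel per gene, with each library a point and each horizontal line the mean of its group of 2, in the order high Cort, 3 h acute, 1 h acute, supplemented ADX, ADX and sham. High Cort libraries are lowest for *Fabp7*, *Nes*, *Gfap*, *Aqp4* and *Sox2* and highest for *Aldoc* and *Aldh1l1*.

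In the 12-day high Cort group, given here as a description only, the genes did not all lie on one side of sham. The libraries of *Fabp7*, *Nes*, *Gfap*, *Aqp4* and, by less, *Sox2* were all lower than those of sham, and those of *Aldoc* and *Aldh1l1* were all higher, although these 2 and *Sox2* did not reach the threshold used below. *Vim* and *Sox9* overlapped with sham. Of the 6 group means, that of high Cort was the highest for *Aldoc* and *Aldh1l1* and the lowest for the other genes tested, by less than the spread for *Vim* and *Sox9*. The share of all tested genes with such an order was not counted, so nothing is read from it. In whole tissue, fewer cells of a type and less RNA per cell cannot be told apart.

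*Fabp7* had 13.11 and 12.88 CPM in high Cort libraries, 15.85 and 18.03 in 3 h acute, 15.31 and 17.80 in 1 h acute, 15.76 and 16.74 in supplemented ADX, 18.33 and 19.60 in ADX, and 25.10 and 29.12 in sham. Sham libraries lay above every other library, and high Cort libraries lay below every other library. In high Cort against sham the log2 fold change was -1.06 ± 0.10 (SE, n = 2 each), and against sham ADX too was lower, at -0.52 ± 0.09 (SE, n = 2 each). The order of the group means was sham, ADX, 3 h acute, 1 h acute, supplemented ADX and high Cort. The libraries of 3 h acute, 1 h acute and supplemented ADX overlapped, and every other pair of neighbours in that order was apart. *Fabp7* was the only one of the 9 genes whose highest group was sham.

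*Nes* had 12.71 and 14.84 CPM in high Cort libraries, 26.70 and 24.97 in 3 h acute, 25.31 and 26.78 in 1 h acute, 27.05 and 23.90 in supplemented ADX, 27.56 and 29.11 in ADX, and 23.96 and 23.89 in sham. High Cort stood below all 10 other libraries, and both ADX libraries stood above all others. The log2 fold change was -0.79 ± 0.09 in high Cort and 0.24 ± 0.08 in ADX, each against sham (SE, n = 2 each). Because vessels also make nestin, endothelial markers were summed: 10 genes gave 505 and 521 CPM in high Cort, against 602 and 593 in sham. Of these 10 endothelial genes, 10 were lower in high Cort, with a median log2 fold change of -0.20 against 0.01 over all genes. Past the test (edgeR, adjusted p under 0.05) 2 fell, where 0.358% of all tested genes did. The part of the endothelial genes in the *Nes* result was not tested. The 10 log2 fold changes ran from -0.85 to -0.01, and that of *Kdr*, a receptor of vascular endothelial growth factor named after its value was seen, was the lowest.

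*Vim*, another filament gene, had 96.78 and 89.34 CPM in high Cort libraries, 109.24 and 110.43 in 3 h acute, 117.41 and 141.71 in 1 h acute, 134.58 and 105.08 in supplemented ADX, 116.21 and 109.70 in ADX, and 100.84 and 85.91 in sham. High Cort and sham overlapped, with a log2 fold change of -0.01 ± 0.14 (SE, n = 2 each), where *Nes* did not. Both ADX libraries were above both sham libraries, at 0.28 ± 0.14.

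*Gfap* had 294.68 and 296.42 CPM in high Cort libraries, 430.41 and 492.01 in 3 h acute, 384.72 and 371.24 in 1 h acute, 428.89 and 398.52 in supplemented ADX, 441.95 and 398.08 in ADX, and 372.55 and 412.45 in sham. The 2 high Cort libraries lay below the other 10, which overlapped in every neighbouring pair of groups. The log2 fold change was -0.41 ± 0.07 in high Cort against sham and 0.10 ± 0.07 in ADX against sham (SE, n = 2 each).

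*Aqp4* had 1183.51 and 1340.77 CPM in high Cort libraries, 1556.49 and 1517.22 in 3 h acute, 1520.02 and 1531.43 in 1 h acute, 1536.26 and 1528.98 in supplemented ADX, 1718.01 and 1754.47 in ADX, and 1533.51 and 1489.83 in sham. High Cort was lowest and ADX highest, with no overlap with any other group, while the remaining 4 groups overlapped as neighbours. Against sham, the log2 fold change was -0.26 ± 0.05 in high Cort and 0.20 ± 0.05 in ADX (SE, n = 2 each).

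The enzyme *Aldoc* ran the other way. It had 966.59 and 830.91 CPM in high Cort libraries, 694.18 and 775.94 in 3 h acute, 644.53 and 695.69 in 1 h acute, 734.91 and 661.68 in supplemented ADX, 556.58 and 544.92 in ADX, and 750.36 and 756.95 in sham. High Cort was highest and ADX lowest, both apart from all other groups. Against sham, the log2 fold change was 0.25 ± 0.08 in high Cort and -0.45 ± 0.08 in ADX (SE, n = 2 each). *Aldh1l1* followed the same order at its ends, with 46.33 and 39.83 CPM in high Cort, 34.49 and 36.72 in ADX, and 37.53 and 39.15 in sham. Its log2 fold changes were smaller, at 0.16 ± 0.07 in high Cort and -0.11 ± 0.07 in ADX (SE, n = 2 each), and its ADX libraries overlapped those of both acute groups and supplemented ADX.

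For the transcription factors, the log2 fold changes against sham were small for *Sox2* and imprecise for *Sox9*. *Sox2* had 80.56 and 82.55 CPM in high Cort, 90.09 and 85.36 in ADX, and 90.01 and 90.55 in sham, and its log2 fold changes were -0.15 ± 0.05 and -0.04 ± 0.05 (SE, n = 2 each) in high Cort and in ADX. In RefSeq, 1 long noncoding gene overlaps *Sox2*, and whether the counting used strand is not given, so reads of the 2 cannot be told apart. *Sox9* had 66.32 and 64.45 CPM in high Cort, 71.42 and 76.39 in ADX, and 79.15 and 62.12 in sham. The 2 sham libraries spanned both other groups, and the *Sox9* SE of 0.17 in high Cort against sham was the largest among the 9 genes.

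**Figure D2:**
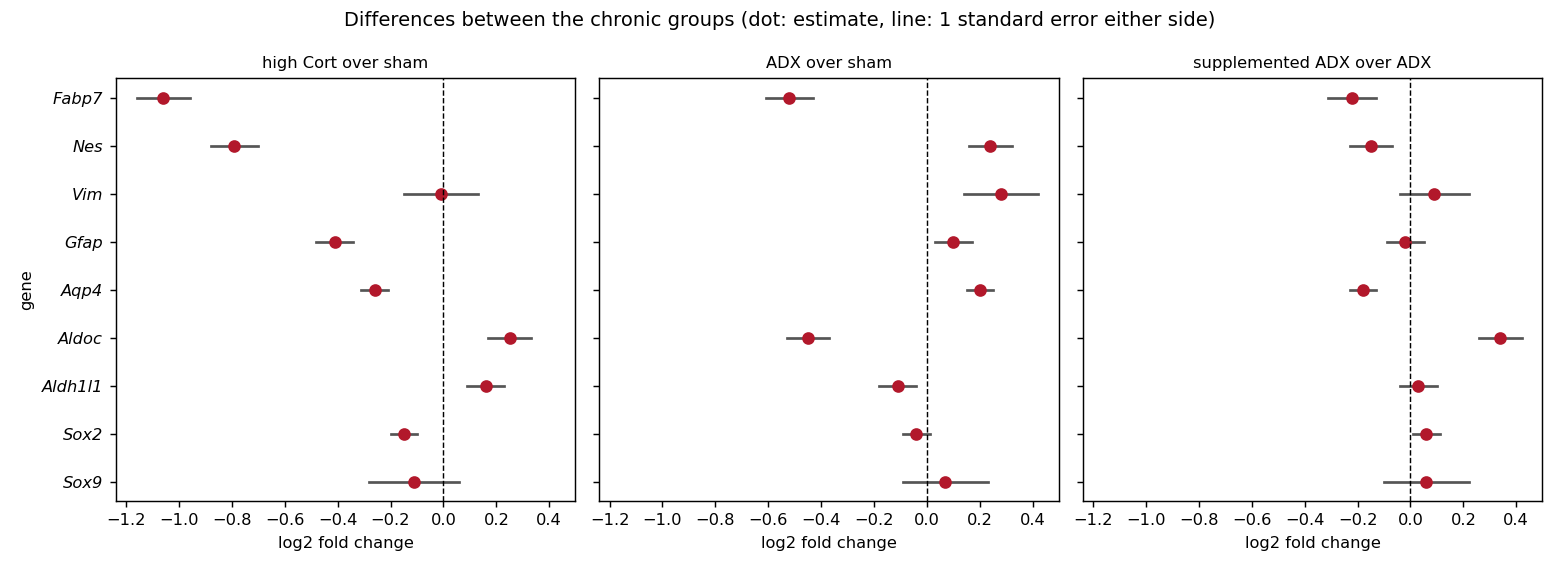
Log2 fold change of the 9 genes in high Cort over sham, ADX over sham and supplemented ADX over ADX, with a line of 1 SE either side. *Aldoc* and *Aqp4* lie on opposite sides of 0 in high Cort and ADX, and *Fabp7* lies below 0 in both.

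In high Cort against sham, one of the comparisons that picked members, 4 of the 9 genes were past edgeR's threshold, all lower, where 0.871% of all tested genes were and 0.358% were lower past it. The libraries of the groups did not overlap for 7 of the 9, where 37.8% of all tested genes did not. In ADX against sham 1 of the 9 was past it, *Fabp7*, where 0.233% of all tested genes were, and the groups did not overlap for 6 of the 9, where 47.2% of all tested genes did not. These counts are fixed in part by that choice and are no result about the set. The median log2 fold change of the 9 was -0.15 in high Cort and 0.07 in ADX, against 0.01 and 0.00 over all genes. The number past the threshold in high Cort was 2 of 9 without sham replicate 2 or without high Cort replicate 1, and 2 genes missed it in 3 of the 4 fits that left out a library. They were *Gfap*, without sham replicate 2 or either high Cort library, and *Aqp4*, without either sham library or high Cort replicate 1. DESeq2 gave *Fabp7* no adjusted p in ADX and called 2 others of the 9, *Aldoc* and *Aqp4*, where it called 2.09% of the genes it could adjust, and the 4-library fit called *Aldoc* and not *Fabp7*. The *Fabp7* call in ADX was also lost without sham replicate 2, without either ADX library, under limma-trend and with the thalamus score in the model, where its log2 fold change was -0.50. Of the 10 thalamic markers, 10 were lower in ADX than in sham, with a median of -0.53.

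In supplemented ADX, both *Aldoc* libraries stood between ADX and sham. The *Aqp4* mean did too, but its libraries overlapped those of sham. *Aldoc* was higher than in ADX, at 0.34 ± 0.08 on the log2 scale, and *Aqp4* and *Fabp7* were lower, at -0.18 ± 0.05 and -0.22 ± 0.09 (SE, n = 2 each). The *Fabp7* mean lay farther from sham than that of ADX did. *Nes* was at -0.15 ± 0.08 and *Vim* at 0.09 ± 0.13, and the other 4 genes were within 0.06 of 0. By edgeR, 0 of 9 genes were called, where 0.0311% of all tested genes were. An unadjusted p under 0.05 was reached by 3, where 521 of all 12856 tested genes did. DESeq2 called 1, *Aldoc*, where it called 0.109% of the genes it could adjust. Groups did not overlap for 4 of the 9, where 35.0% of all tested genes did not. This comparison crosses the 2 inferred runs of the authors' processing and shares the ADX libraries with the comparison of ADX with sham.

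The acute comparisons set no library of the groups that picked members against another. The spread in edgeR and DESeq2 was, however, estimated over all 12 libraries, those groups included, while limma-trend used the second run alone. In 1 h acute against supplemented ADX, edgeR called 0 of 9 genes, where 0.0467% of all tested genes were called. None had an unadjusted p under 0.05, where 1890 of all 12856 tested genes did. The 95% intervals of the 9 log2 fold changes ran from -0.29 to 0.48, with those outer bounds set by *Gfap* and *Sox9*. The interval was narrowest for *Sox2*, at -0.15 to 0.05, and *Aqp4*, at -0.11 to 0.10. DESeq2, which called 1.03% of the genes it could adjust, called none of the 9, and neither did limma-trend, which called 0.0514% and 0.0428% of the genes it tested at pseudocount 1 and 0.1. In 3 h acute against supplemented ADX, edgeR again called 0 of 9, where 0.00778% of all tested genes were. Only 1, *Gfap*, had an unadjusted p under 0.05, where 1612 of all 12856 tested genes did. DESeq2, which called 0.287% of the genes it could adjust, called none of the 9, and neither did limma-trend, which called 0.0171% and 0.00856% of those it tested at the same pseudocounts. The intervals ran from -0.45 to 0.39. The groups did not overlap for 1 of 9 genes in each, where 46.5% of all tested genes did not overlap at 1 h and 45.8% at 3 h.

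*Gfap* was the one gene of the 9 whose interval between the acute groups left out 0. Its level was 430.41 and 492.01 CPM at 3 h, against 384.72 and 371.24 CPM at 1 h, a log2 fold change of 0.29 ± 0.07 (SE, n = 2 each), with a 95% interval of 0.13 to 0.44. It did not pass edgeR's quasi-likelihood test (unadjusted p = 0.00175, Benjamini-Hochberg adjusted p = 0.195), and both 3 h libraries were higher. DESeq2 called it, with an adjusted p of 0.0322, and over the alternatives the adjusted p ranged from 0.0322 to 0.723. In 3 h against 1 h edgeR called 0 of 9 genes, where 0.0233% of all tested genes were. Only 1 had an unadjusted p under 0.05, where 1366 of all 12856 tested genes did. DESeq2 called 1 of 9, where it called 0.237% of the genes it could adjust, and limma-trend, which called 0.0856% of those it tested at either pseudocount, called none of the 9. Groups were apart for 3 of 9, where 38.9% of all tested genes were. The *Gfap* value was -0.13 ± 0.07 at 1 h (adjusted p = 0.423) and 0.16 ± 0.07 at 3 h (adjusted p = 0.392) against supplemented ADX (edgeR, SE, n = 2 each). The 10 thalamic markers moved in the acute groups, with 10 of 10 lower than in supplemented ADX at 1 h and at 3 h and medians of -0.64 and -0.41. With the thalamus score in the model, *Gfap* was at -0.03 at 1 h and 0.22 at 3 h against supplemented ADX, and at 0.25 in 3 h against 1 h. *Sox9* then stood at -0.31 at 1 h and -0.27 at 3 h against supplemented ADX, where it was at 0.09 and 0.00 without the score. *Vim* stood at -0.13 at 1 h and -0.29 at 3 h, where it was at 0.11 and -0.13 without the score, and none of these values passed the test.

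**Figure D3:**
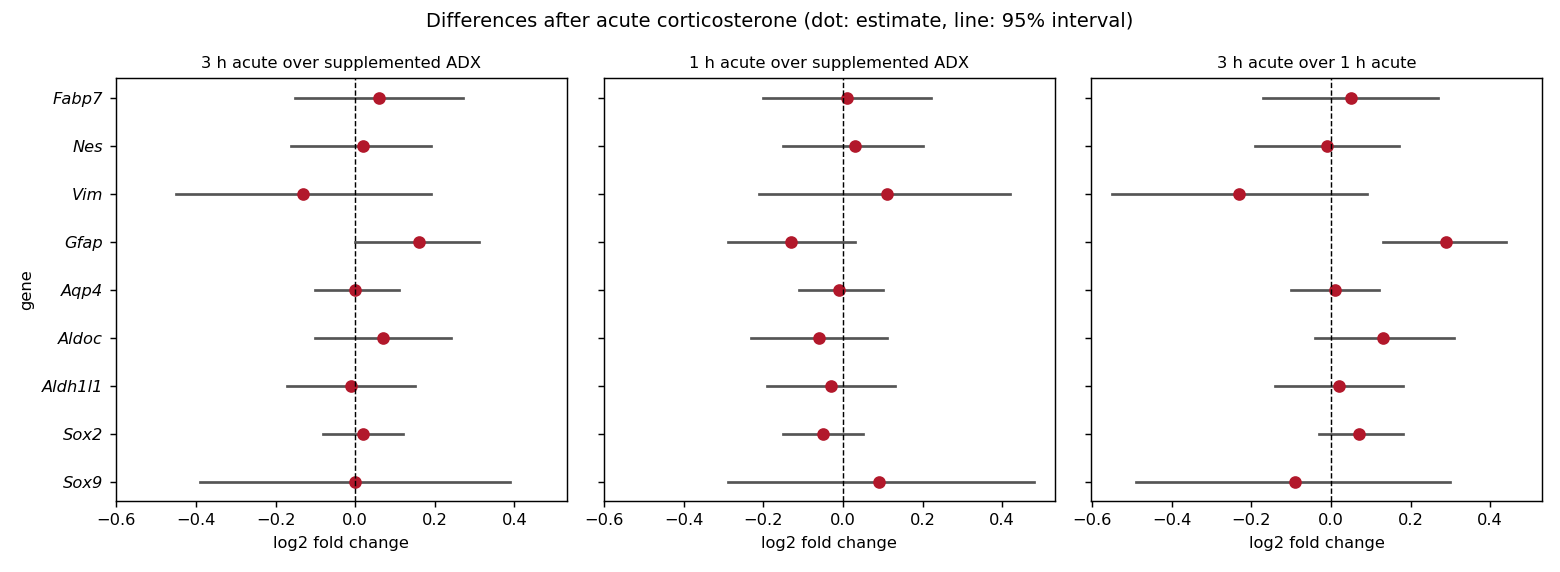
Log2 fold change of the 9 genes in 3 h acute over supplemented ADX, 1 h acute over supplemented ADX and 3 h acute over 1 h acute, with a line for the 95% interval. In both comparisons with supplemented ADX the intervals cross 0 except that of *Gfap* at 3 h, which starts at 0.00, and in 3 h over 1 h that of *Gfap* runs from 0.13 to 0.44.

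Among other genes of the same cells (the glial lists), edgeR's calls in high Cort came from the astrocyte list. These lists were chosen with earlier results of these libraries known, and single genes are named for their low p. Their counts and p-values are therefore a description. In high Cort against sham, 2 of 21 other astrocyte genes rose and 0 fell, where 0.513% of all tested genes rose, and the median log2 fold change was 0.06. *Glul*, glutamine synthetase, had 1876.26 and 1952.48 CPM in high Cort against 1351.72 and 1235.95 in sham, a log2 fold change of 0.57 ± 0.07 (SE, n = 2 each, edgeR adjusted p = 0.00423), higher in 2 of 2 libraries and called under all 13 alternatives. *Gjb6*, the astrocyte gap junction protein connexin 30, had 95.89 and 81.72 CPM in high Cort against 64.63 and 66.19 in sham, at 0.44 ± 0.08 (SE, n = 2 each, edgeR adjusted p = 0.0136). The *Gjb6* call was lost without sham replicate 1, sham replicate 2 or high Cort replicate 1, with adjusted p from 0.000195 to 0.182 over its alternatives. *Cldn10*, a claudin, had 9.02 and 10.01 CPM in high Cort against 11.96 and 12.18 in sham, and did not pass (adjusted p = 0.138). In ADX against sham none of the 21 passed edgeR's test, and 6 had an unadjusted p under 0.05, where 1647 of all 12856 tested genes did. DESeq2 called 3, where it called 2.09% of the genes it could adjust. *Gjb6* stood at 51.72 and 49.22 CPM in ADX against 64.63 and 66.19 in sham, at -0.37 ± 0.08 (adjusted p = 0.0695). The 21 genes had 19 positive values in supplemented ADX against ADX, with 0 called by edgeR. An unadjusted p under 0.05 was reached by 6, where 521 of all 12856 tested genes did. DESeq2 called 1, where it called 0.109% of the genes it could adjust.

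Of 12 other tanycyte genes, edgeR and DESeq2 called 0 in each comparison. Against sham, 1 had an unadjusted p under 0.05 in high Cort and 3 in ADX, where 1075 and 1647 of all 12856 tested genes did. *Fgf10*, a growth factor, had 5.02 and 4.79 CPM in high Cort against 3.45 and 3.51 in sham (log2 fold change 0.49 ± 0.17, adjusted p = 0.330). Of 17 other radial glia genes, edgeR called 0. In high Cort against sham 3 had an unadjusted p under 0.05, where 1075 of all 12856 tested genes did. DESeq2 called 1 there, where it called 138 of all genes. *Lfng*, a Notch modifier, had 49.69 and 39.13 CPM in high Cort against 31.89 and 32.23 in sham (0.47 ± 0.15, adjusted p = 0.324), and *Ptprz1*, a receptor phosphatase, had 720.02 and 762.83 CPM in high Cort against 806.05 and 810.18 in sham (-0.12 ± 0.05, adjusted p = 0.408). The medians were 0.05 for tanycyte genes and -0.06 for radial glia genes, against 0.01 over all genes. Of 11 tested reactive astrocyte genes, edgeR and DESeq2 called 0. In high Cort against sham 1 of them had an unadjusted p under 0.05, where 1075 of all 12856 tested genes did. In ADX against sham, 10 of 10 ependymal genes, of the ciliated cells beside tanycytes, were positive with a median of 0.26. An unadjusted p under 0.05 was reached by 6, where 1647 of all 12856 tested genes did, and neither edgeR nor DESeq2 called any. *Foxj1*, the ciliogenesis factor, had 25.59 and 23.89 CPM in ADX against 19.22 and 18.88 in sham (0.38 ± 0.12, adjusted p = 0.226).

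**Figure D4:**
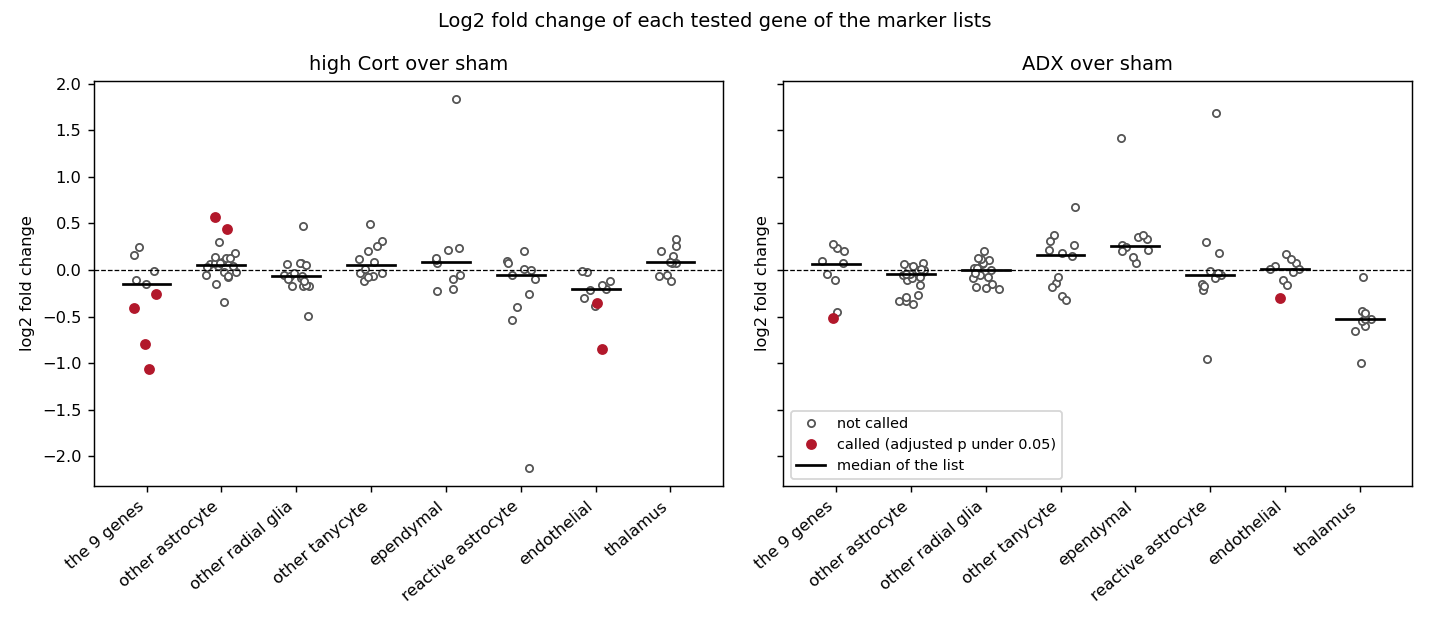
Log2 fold change of every tested gene of 8 lists in high Cort over sham and in ADX over sham, with filled points for genes called and a line for the list's median. In high Cort the other astrocyte list centres at 0.06 and the endothelial list at -0.20, and in ADX the ependymal list centres at 0.26 and the thalamic list at -0.53.

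Across the 12 libraries, Pearson's r of log2 CPM was 0.93 for *Nes* and *Aqp4*, 0.86 for *Gfap* and *Sox2*, 0.79 for *Vim* and *Sox9* and 0.79 for *Aldoc* and *Aldh1l1*, and -0.93 for *Aqp4* and *Aldoc* (n = 12 libraries, which share groups and processing runs). Among 10961 genes, the 3 most like *Fabp7* were *Pla2g4a* (r = 0.881), *Arhgap25* (r = 0.843) and *Cldn10* (r = 0.835). Their rank correlations (Spearman's rho) were lower, at 0.713, 0.650 and 0.531. The 3 most like *Nes* were *Cd276* (r = 0.967, rho = 0.867), *Slc39a8* (r = 0.958, rho = 0.636) and *Igf2* (r = 0.956, rho = 0.713). *Igf2* averaged 12.49 CPM in high Cort, 34.80 in ADX and 26.24 in sham. The 3 most like *Gfap* were *Ppapdc1a* (r = 0.933, rho = 0.916), *Scamp2* (r = 0.919, rho = 0.874) and *Rxfp1* (r = 0.918, rho = 0.839).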

How the data were processed

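RNA from the dissected tissue (Trizol, then columns with DNase) went into TruSeq RNA version 2 libraries for an Illumina HiSeq2000, per the labels' protocols. Per the submitters' processing notes the tools included CASAVA 1.8.2, TopHat2 2.1.1 and Cufflinks 2.2.1, with build rn6. For the gene annotation and any strand setting, the sources used here give nothing. The authors deposited, per gene and library, raw fragments, which are expected counts, and FPKM values. The condition labels q1, q2 and q3 repeat over the 6 groups, from which 2 processing runs were inferred. The geometric mean of the authors' scale factors was 0.998 in each inferred run. Over all genes and libraries, 0.751% of the expected counts were not whole and were rounded. They lay in 233 genes, none of them among the 10 genes. The 4 cells with status FAIL, in 3 other genes, were kept.

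Counts were fitted in R 4.3.3 with edgeR 4.0.16 as 1 quasi-likelihood model of all 12 libraries, with filterByExpr (minimum count 10, minimum total 15), TMM scaling and a coefficient per group (6 residual degrees of freedom, median prior 8.9). The 6 comparisons were tested 2-sided. A permutation test of 2 against 2 libraries can give no p under 0.333. Alternatives were RLE size factors, no filter, a stricter filter (4 or more libraries with a CPM of 1 or more), DESeq2 1.42.0, limma 3.58.1 (limma-trend, log2 FPKM, pseudocount 1 or 0.1), the 4 libraries compared, a replicate block, the thalamus score, and leaving out each library. The fit was tested on simulated data with 200 changed genes.

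The 10 genes and the lists were chosen with earlier results of these data known. The 9 tested genes entered every comparison, and the text prints a part of their values. *Rax*, which failed the filter, was given by its counts alone. The naming rule took the 3 genes with the lowest p in each of 5 glial lists, of which the text gives a part. It also took the 3 genes of highest Pearson r with *Fabp7*, *Nes* and *Gfap*, which *Rax* could not enter. Some tanycyte genes were named outside this rule, to show levels. Promoters were matched by symbol for 9 of the 10 genes in RefSeq's table for GRCr8; *Sox9* was not among them.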

Additional observations from a re-analysis of the deposited data

How the results depend on the processing

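All comparisons rest on 2 libraries a group, the calls draw on a spread pooled over 12 libraries, and FPKM fits were not run across the processing runs. The cause of each move below was not tested.

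The number of the 9 genes called in high Cort against sham was 4, with 1 under limma-trend at either pseudocount and 2 to 4 without one library (2 without sham replicate 2 or high Cort replicate 1). In ADX against sham it was 1, *Fabp7*. It was 2 under RLE, no filter and the stricter filter (*Fabp7* and *Aldoc*), 2 under DESeq2 (*Aldoc* and *Aqp4*, with no adjusted p for *Fabp7*), 1 in the 4-library fit (*Aldoc*), and 0 with the thalamus score and under limma-trend at either pseudocount, and 0 to 1 without one library. In supplemented ADX against ADX it was 0, with 2 in the 4-library fit and 1 by DESeq2, and in 3 h against 1 h it was 0, with 1 by DESeq2.

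Over all genes, high Cort against sham gave 112 calls, with 46 in the 4-library fit, 22 and 18 under limma-trend with pseudocount 1 and 0.1, and 23 (without high Cort replicate 1) to 121 without one library. ADX against sham gave 30, with 48 under no filter, 7 with the thalamus score, 128 by DESeq2, 5 under limma-trend at either pseudocount and 4 (without ADX replicate 1) to 148 (without sham replicate 1) leaving one library out. Supplemented ADX against ADX gave 4, with 33 in the 4-library fit, 14 by DESeq2 and 0 to 4 without one library. The 1 h group against supplemented ADX gave 6, with 16 under no filter, 1 with the thalamus score, 76 by DESeq2 and 1 to 624 (without 1 h replicate 1) leaving one library out. The 3 h group against supplemented ADX gave 1, with 20 under no filter, 0 with the thalamus score, 154 in the 4-library fit, 34 by DESeq2, 2 under limma-trend with pseudocount 1 and 0 without any one library. The 3 h group against 1 h gave 3, with 5 under no filter, 9 in the 4-library fit, 24 by DESeq2, 10 under limma-trend at either pseudocount and 0 to 35 (without 1 h replicate 1) leaving one library out.

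With the replicate number as a block, ADX against sham gave 19 calls and 1 h against supplemented ADX gave 3, and the counts of the 9 genes called did not change. Whether these numbers pair the libraries is not known. Over 15 pairs of groups, the correlation of replicate differences ran from -0.323 to 0.093.

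Signs turned only for values that were not called. Over all alternatives *Vim* ran from -0.12 to 0.11 and *Sox9* from -0.28 to 0.07 in high Cort against sham, *Sox9* from -0.17 to 0.25 in ADX against sham, and *Vim* from -0.10 to 0.25, *Gfap* from -0.09 to 0.06 and *Aldh1l1* from -0.01 to 0.08 in supplemented ADX against ADX. Against supplemented ADX at 1 h, the thalamus score gave -0.02 for *Nes*, -0.13 for *Vim* and -0.31 for *Sox9*. At 3 h it gave -0.01 for *Nes* and -0.02 for *Aqp4*, and *Sox9* came to 0.00 with no filter, the stricter filter and limma-trend. In 3 h against 1 h it gave 0.00 for *Nes* and 0.05 for *Sox9*. Without one library the 1 h values ran from -0.08 to 0.13 for *Fabp7*, -0.06 to 0.12 for *Nes*, -0.06 to 0.29 for *Vim*, -0.14 to 0.01 for *Aldoc*, -0.10 to 0.05 for *Aldh1l1* and -0.16 to 0.34 for *Sox9*. The 3 h values ran from -0.02 to 0.15 for *Fabp7*, -0.07 to 0.11 for *Nes*, -0.29 to 0.06 for *Vim*, -0.01 to 0.03 for *Aqp4*, -0.02 to 0.00 for *Aldh1l1*, -0.02 to 0.06 for *Sox2* and -0.03 to 0.03 for *Sox9*. The 3 h against 1 h values ran from -0.07 to 0.15 for *Fabp7*, -0.05 to 0.05 for *Nes*, -0.01 to 0.04 for *Aqp4*, -0.06 to 0.09 for *Aldh1l1* and -0.33 to 0.16 for *Sox9*.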

Other observations

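Genes of dividing cells, oligodendrocytes and microglia were measured in the same libraries. In ADX against sham, 8 of 8 proliferation genes had a positive log2 fold change, with a median of 0.39 against 0.00 over all genes. Past edgeR's test 1 rose, *Top2a*, where 17 of all 12856 tested genes did. Its level was low, at 0.324 to 3.21 CPM over the libraries, and DESeq2 called 0 of the 8. Of 12 oligodendrocyte lineage genes, 9 had a negative value in high Cort against sham, with a median of -0.14. By edgeR 1 fell, where 0.358% of all tested genes did. Summed, the 12 genes reached 6102.3 and 7333.4 CPM in the high Cort libraries and 8696.6 and 7485.5 CPM in the sham libraries. Of 10 microglial genes, 9 had a negative value in high Cort, with a median of -0.13, although edgeR and DESeq2 called 0. An unadjusted p under 0.05 was reached by 4, where 1075 of all 12856 tested genes did. Summed, they reached 292 and 323 CPM in the high Cort libraries and 337 and 349 CPM in the sham libraries.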
